A study of Mus musculus with 12 samples.

Results

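9 genes encoding transcription factors that establish and hold hepatocyte identity, Hnf4a, Cebpa, Cebpb, Foxa1, Foxa2, Foxa3, Nr1h4, Nr5a2 and Prox1, were followed across 12 mouse liver RNA-seq libraries. They were taken by gene symbol from the 48576 genes listed in the count tables, and all 9 were found and were among the 17964 genes with enough reads to be tested. These factors work as a network in which each binds regulatory elements of many liver genes and of the other factors. The FOXA proteins are pioneer factors that open chromatin, HNF4A and the C/EBP proteins bind there to drive the genes of plasma proteins, lipid handling, glucose production and nitrogen disposal, and NR1H4 (FXR) and NR5A2 (LRH-1) are nuclear receptors that act on bile acid and cholesterol genes. PROX1 is a homeobox factor of the embryonic liver bud and of adult hepatocytes that acts with nuclear receptors, mostly as a corepressor.

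The livers came from 2 transgenic models. In the YAP model all mice carried Col-TRE-YAPS127A and Rosa26-LSL-rtTA: a doxycycline-responsive transgene for a YAP mutant that escapes Hippo phosphorylation, and a doxycycline-dependent activator that Cre must first unlock. AAV-TBG-Cre, in which the TBG promoter restricts Cre to hepatocytes, was injected at an age of 8 to 10 weeks. Doxycycline then induced YAPS127A for 2 weeks (n = 2) or 4 weeks (n = 3), and livers of this genotype without induction were the YAP controls (n = 2). Whether these controls received virus or doxycycline is not given in the sources used here. MYC livers carried LAP-tTA and TRE-MYC (n = 3), with MYC switched on from about embryonic day 8 by taking doxycycline away from the dams, and their controls carried LAP-tTA without TRE-MYC under an identical doxycycline schedule (n = 2); both were collected at 4 weeks of age. LAP (liver activator protein) is an older name for C/EBPβ, so the activator in all 5 libraries of the MYC model is driven by a promoter of a Cebpb gene.

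Libraries held between 12511170 and 17690798 counts. The RNA was from whole liver although the cell type is labelled hepatocytes. All 9 tested hepatocyte markers were detected in each library, with summed levels between 36900 and 136000 CPM (CPM are counts scaled to library size, here with TMM factors). Yap1 under its mouse symbol lay between 65.6 and 87.4 CPM in all 7 libraries of the YAP model, and Myc was at 22.2 to 31.4 CPM in MYC livers against 6.71 and 15.5 CPM in MYC controls. Myc was higher still, at 64.8 to 117 CPM, in the 5 induced YAP livers, against 8.17 and 53.2 CPM in YAP controls, and did not pass there (adjusted p = 0.0871 at 2 weeks and 0.0792 at 4 weeks). Neither Yap1 nor Myc passed in its own model (log2 fold changes of -0.19 ± 0.16 for Yap1 at 4 weeks, adjusted p = 0.372, and 1.21 ± 0.66 for Myc, adjusted p = 0.242), and whether transgene reads were counted under them is not known. Mitochondrial genes took 10.2 and 13.9% of counts in 2-week YAP livers and 7.67 to 11.7% in 4-week YAP livers, against 19.3 and 19.6% in YAP controls. By Xist and Y-linked counts, replicate 2 of the 2-week group and all 3 4-week livers had a female pattern and the other 8 libraries a male one, so at 4 weeks sex and induction cannot be told apart. Summed skeletal muscle markers were at 429 and 471 CPM in 2-week YAP livers and at most 20 CPM in the other 10 libraries; their part in the results was not tested. In bulk RNA, fewer cells of a type and less RNA per cell cannot be told apart.

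Per kilobase of exon, which allows levels of different genes to be compared, Hnf4a was the most abundant of the 9 factors in each of the 5 groups. It stood at 100.1 ± 33.3 CPM per kb in 2-week YAP livers (SD, n = 2), 86.98 ± 11.5 in 4-week YAP livers (n = 3) and 147.5 ± 7.75 in YAP controls (n = 2). In MYC livers its level was 75.6 ± 10.2 CPM per kb (n = 3) and in MYC controls 137.5 ± 2.65 (n = 2). In both control groups Cebpa was next, at 134.1 ± 3.43 CPM per kb in YAP controls and 124.9 ± 2.32 in MYC controls, with its libraries below all those of Hnf4a and above all those of the factor next in order, Cebpb. In YAP controls the order went on with Cebpb (69.53), Nr1h4 (68.68), Prox1 (38.78), Foxa3 (33.31), Nr5a2 (19.37), Foxa1 (13.85) and Foxa2 (12.27 CPM per kb). Cebpb and Nr1h4, and Foxa1 and Foxa2, overlapped over the 2 YAP control libraries.

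The order differed in induced livers. In 4-week YAP livers Prox1 stood next to Hnf4a at 57.94 ± 15.3 CPM per kb, ahead of Cebpa at 55.18 ± 9.82, though the libraries of both overlapped. Cebpb was sixth there, at 27.36 ± 0.772 CPM per kb. In 2-week YAP livers Cebpa (50.31), Prox1 (43.69), Cebpb (41.83) and Nr1h4 (40.86 CPM per kb) each overlapped with their neighbour in order. In MYC livers Hnf4a (75.6) and Cebpa (61.04 CPM per kb) overlapped, and Foxa1 was last at 5.012 ± 1.02 CPM per kb, below all libraries of Foxa2.

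**Figure D1:**
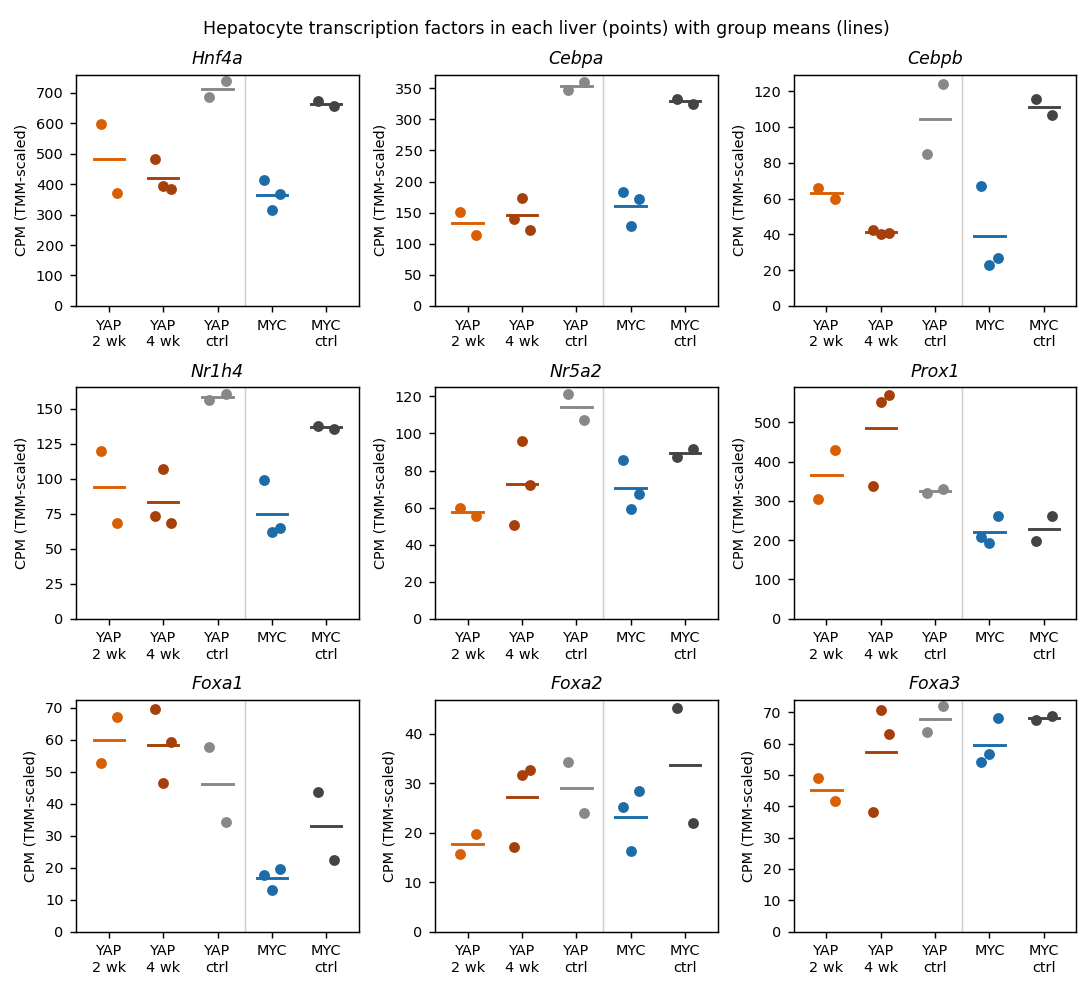
Level of each transcription factor in CPM (vertical axis, TMM-scaled, starting at 0) in every library (points) with the group mean (line), for 2-week YAP livers, 4-week YAP livers, YAP controls, MYC livers and MYC controls from left to right. Cebpa lies between 113.6 and 183.1 CPM in all 8 induced livers and between 324.8 and 359.8 CPM in all 4 controls.

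Changes were tested with edgeR's quasi-likelihood test, with p-values adjusted by the Benjamini-Hochberg method across the 17964 genes and a threshold of 0.05 for a call. After 2 weeks of YAP induction 2 of the 9 factors fell, Cebpa and Nr5a2, and 7 did not pass, where 27.8% of all tested genes were called, 15.1% higher and 12.7% lower. After 4 weeks 4 fell, Hnf4a, Cebpa, Cebpb and Nr1h4, against 33.8% of all genes called, 18.1% higher and 15.7% lower. In MYC livers 5 fell, Hnf4a, Cebpa, Cebpb, Foxa1 and Nr1h4, where 18.3% of all genes were called, 9.76% higher and 8.56% lower. No factor was called higher in these comparisons. The median log2 fold change of the 9 was -0.71 at 2 weeks, -0.65 at 4 weeks and -0.86 with MYC, beside medians of 0.10, 0.18 and 0.02 over all tested genes.

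TMM scaling keeps the centre of all genes near no change, while single genes moved in both directions. The median absolute log2 fold change of all tested genes was 0.736 at 2 weeks, 0.758 at 4 weeks and 0.551 with MYC. For the 9 factors it was 0.712, 0.647 and 0.862, so below that of all genes in both YAP comparisons. With scaling by total counts, which moved the median of all genes up by 0.53, 0.74 and 0.41 on the log2 scale in the comparisons in that order, the picture changed. 1 factor was then lower at 2 weeks (Cebpa), 1 lower (Cebpa) and 2 higher (Prox1 and Foxa1) at 4 weeks, and 2 lower with MYC (Cebpa and Cebpb). Under either scaling 7, 7 and all 9 of the factors lay below the median of all genes in the comparisons in that order. Groups did not overlap for 7 of 9 factors at 2 weeks, 6 at 4 weeks and 6 with MYC, where 66.6%, 59.9% and 53% of all tested genes had groups apart.

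**Figure D2:**
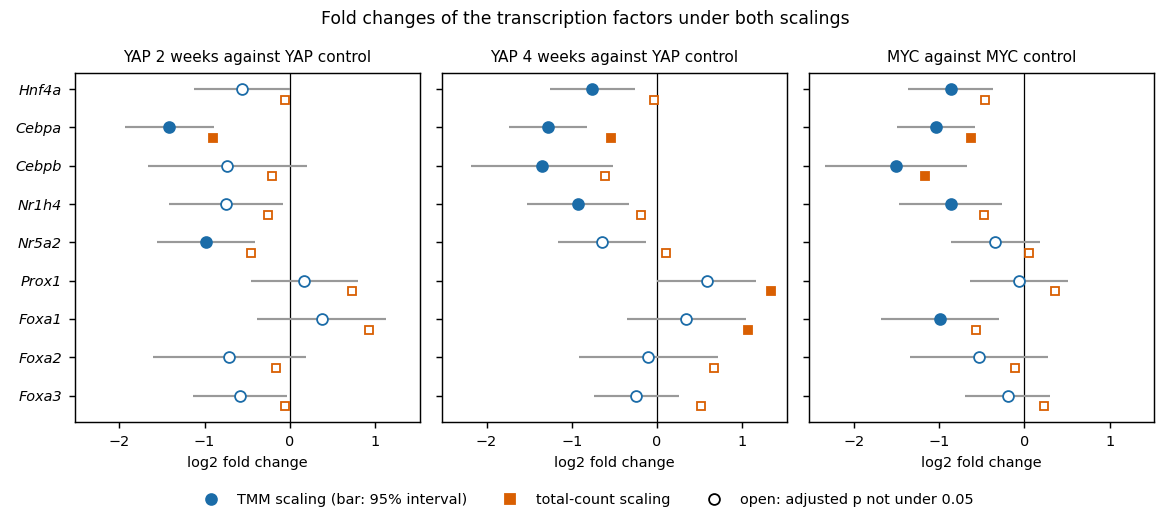
Log2 fold changes (horizontal axis) of the 9 factors in 3 comparisons with controls, by TMM scaling (circles, with 95% confidence intervals as bars) and by total-count scaling (squares); filled symbols passed the test. Cebpa is filled under both scalings in all 3 panels, and each square lies to the right of its circle.

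Promoter sequences were read for the factors from RefSeq (GRCm38.p6; 250 bases before to 50 after each annotated start), which gave 14 windows for the 9 genes. They were searched on both strands for GGAATG (bound by TEAD proteins, the DNA-binding partners of YAP), CACGTG (the E-box bound by MYC), TTGCNNAA (C/EBP), TGTTTNC (FOXA), CAAAGTC (HNF4) and CAAGGTC (LRH-1). Cebpa is shown because it fell in every comparison with controls, Hnf4a (both annotated starts, the upstream one known as P2 and the downstream one, used in adult hepatocytes, as P1) because it was the most abundant, and Nr5a2 (window of the downstream start) because it holds the GGAATG match. Capitals mark matches.
Cebpa, chr7:35119043-35119342, plus strand: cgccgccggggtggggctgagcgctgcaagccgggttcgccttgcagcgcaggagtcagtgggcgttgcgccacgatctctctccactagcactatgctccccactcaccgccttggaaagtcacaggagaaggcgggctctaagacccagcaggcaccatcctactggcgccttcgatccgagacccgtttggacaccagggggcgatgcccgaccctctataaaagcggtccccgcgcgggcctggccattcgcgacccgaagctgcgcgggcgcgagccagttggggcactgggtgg
Hnf4a upstream start, chr2:163506607-163506906, plus strand: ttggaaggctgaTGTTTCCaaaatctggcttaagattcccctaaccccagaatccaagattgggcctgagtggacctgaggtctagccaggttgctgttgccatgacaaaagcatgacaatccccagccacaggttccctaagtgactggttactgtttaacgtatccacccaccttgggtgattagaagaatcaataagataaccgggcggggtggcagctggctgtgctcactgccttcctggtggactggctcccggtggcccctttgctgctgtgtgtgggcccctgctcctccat
Hnf4a downstream start, chr2:163546905-163547204, plus strand: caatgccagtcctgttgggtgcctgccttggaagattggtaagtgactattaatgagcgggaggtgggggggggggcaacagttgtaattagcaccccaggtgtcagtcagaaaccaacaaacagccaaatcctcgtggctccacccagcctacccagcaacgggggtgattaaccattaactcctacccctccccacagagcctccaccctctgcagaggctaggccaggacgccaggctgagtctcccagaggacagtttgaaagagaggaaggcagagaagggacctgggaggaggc
Nr5a2, chr1:136953581-136953880, minus strand: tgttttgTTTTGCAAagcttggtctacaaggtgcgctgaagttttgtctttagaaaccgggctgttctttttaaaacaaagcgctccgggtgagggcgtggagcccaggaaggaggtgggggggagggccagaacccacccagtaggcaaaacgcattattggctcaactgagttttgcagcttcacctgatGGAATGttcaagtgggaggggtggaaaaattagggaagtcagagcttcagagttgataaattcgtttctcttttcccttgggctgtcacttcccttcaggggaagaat

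Neither Cebpa nor the downstream window of Hnf4a had a match to any of the 6 motifs. In the upstream window of Hnf4a the capitals are a TGTTTNC match at -238 to -232 from the start. In Nr5a2 they are a C/EBP match at -243 to -236, on the strand opposite to the one printed, and GGAATG at -58 to -53. GGAATG was found in 1 of the 14 windows of these factors and in 14.7% of all 32851 promoter windows. CACGTG was in 0 of the 14 and in 7.15% of all windows. TGTTTNC was in 3 of the 14, those of Hnf4a, Foxa1 and Prox1, and in 20.5% of all windows, TTGCNNAA in 1 and 10.8%, and CAAAGTC and CAAGGTC in 0, against 4.44% and 3.96% of all windows. Gene counts do not tell the starts of a gene apart, and a match is only a description of these letters in these windows.

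Cebpa, whose product C/EBPα drives hepatocyte maturation genes and restrains proliferation, is the factor whose fall was seen in every comparison with controls. The gene (ENSMUSG00000034957.10, chromosome 7, 35119293 to 35121928, plus strand, GRCm38) has a single exon block of 2636 bases. Its levels were 151.6 and 113.6 CPM in 2-week YAP livers and 140.4, 173.5 and 122.5 CPM in 4-week YAP livers, against 347 and 359.8 CPM in YAP controls. In the MYC model they were 183.1, 128.2 and 171.3 CPM in MYC livers against 333.5 and 324.8 CPM in MYC controls. No induced library reached any control library, and the 4 controls lay close together across both models.

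Cebpa fell by 1.41 ± 0.24 on the log2 scale at 2 weeks (SE, adjusted p = 0.00162), 62.5% lower than in YAP controls. The fall was 1.28 ± 0.21 at 4 weeks (log2 fold change -1.28, adjusted p = 0.00115, 58.8% lower) and 1.03 ± 0.21 with MYC (log2 fold change -1.03, adjusted p = 0.00773, 51.1% lower). Among all tested genes its p ranked 908 at 2 weeks, 1026 at 4 weeks and 946 with MYC. Scaled by total counts it was still lower in all 3 comparisons, with log2 fold changes of -0.90 (adjusted p = 0.00716), -0.55 (0.0322) and -0.63 (0.0335). At 2 weeks, with the 1 male library against the male controls, the log2 fold change was -1.22 (adjusted p = 0.0232). Both YAP comparisons passed when any 1 of the 12 libraries was left out. With MYC the call was lost without MYC control replicate 1 (log2 fold change -1.01, adjusted p = 0.0643) or replicate 2 (-1.05, 0.055), where a single control is assumed to vary like the other groups.

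Cebpb encodes C/EBPβ, which rises in regeneration and inflammation and drives acute phase genes. It lies on chromosome 2 (ENSMUSG00000056501.3, 167688915 to 167690418, plus strand) in a single exon block of 1504 bases. Levels were 66.1 and 59.72 CPM in 2-week YAP livers and 42.5, 40.43 and 40.54 CPM in 4-week YAP livers, against 84.92 and 124.2 CPM in YAP controls. MYC livers had 67.24, 22.71 and 26.87 CPM, against 115.5 and 106.5 CPM in MYC controls. Induced libraries lay below their controls in all 3 comparisons, with the 3 4-week livers nearly equal and MYC replicate 1 well above the other 2 MYC livers.

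The log2 fold change of Cebpb was -0.73 ± 0.42 at 2 weeks, which did not pass (adjusted p = 0.218). It fell at 4 weeks, by 1.34 ± 0.38 (adjusted p = 0.0201), and with MYC, by 1.51 ± 0.38 (adjusted p = 0.0209). With total-count scaling it remained lower with MYC (log2 fold change -1.16, adjusted p = 0.0211) and did not pass at 4 weeks (-0.61, 0.121). The 4-week call was lost without YAP control replicate 2 (adjusted p = 0.148), 4-week replicate 2 (0.0507) or 4-week replicate 3 (0.0577), and the MYC call without MYC replicate 2 (0.0537) or 3 (0.0614) or MYC control replicate 1 (0.121) or 2 (0.0927). Tmem189 on the opposite strand shares 312 exonic bases with Cebpb, and its own count reached at most 26.2% of the Cebpb count in a library. The strand setting of the counting is not given in the sources used here, so reads of both genes cannot be told apart there.

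Hnf4a encodes a nuclear receptor that is required for the mature hepatocyte programme. It spans 163506808 to 163572910 on the plus strand of chromosome 2 (ENSMUSG00000017950.16) in 13 exon blocks. Levels were 596.7 and 369.7 CPM in 2-week YAP livers and 483.5, 393.2 and 383.1 CPM in 4-week YAP livers, against 685.9 and 738.8 CPM in YAP controls. With MYC the levels were 413.2, 315.2 and 366.6 CPM, against 673.1 and 655 CPM in MYC controls. All induced livers were below their controls, and the 2 libraries at 2 weeks differed from each other more than the 3 at 4 weeks.

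At 2 weeks the log2 fold change of Hnf4a was -0.56 ± 0.25 and did not pass (adjusted p = 0.122). With only the male 2-week library against the male controls it was -0.25. Hnf4a fell at 4 weeks by 0.76 ± 0.23 (adjusted p = 0.0248, 41% lower) and in MYC livers by 0.86 ± 0.23 (adjusted p = 0.024, 45% lower). Neither call held with total-count scaling, where the log2 fold changes were -0.03 (adjusted p = 0.883) and -0.46 (0.0821). Leaving out YAP control replicate 1 (adjusted p = 0.086) or 2 (0.128) or 4-week replicate 2 (0.0656) or 3 (0.078) also ended the 4-week call. The MYC call ended without MYC replicate 2 (0.0903) or 3 (0.0609), or MYC control replicate 1 (0.139) or 2 (0.116).

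Since a ratio of 2 genes within a library does not depend on the scaling, Cebpa and Prox1 were also set against Hnf4a, a choice made after their values were seen and therefore given with no test. The Cebpa count was 0.254 and 0.307 of the Hnf4a count in 2-week YAP livers and 0.29, 0.441 and 0.32 in 4-week YAP livers, against 0.506 and 0.487 in YAP controls. MYC livers had ratios of 0.443, 0.407 and 0.467, against 0.495 and 0.496 in MYC controls. Cebpa was thus lower relative to Hnf4a in all 8 induced livers than in all 4 controls, with log2 differences of -0.83 at 2 weeks, -0.53 at 4 weeks and -0.18 with MYC.

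The ratio of Cebpa to Cebpb counts was 2.29 and 1.9 in 2-week YAP livers, against 4.08 and 2.9 in YAP controls, a log2 difference of -0.72 (two-sided exact permutation p = 0.333, the smallest that 2 against 2 libraries allow). In 4-week YAP livers the ratio was 3.3, 4.29 and 3.02 and overlapped the controls (log2 difference 0.02, exact permutation p = 1). MYC livers had ratios of 2.72, 5.64 and 6.37, against 2.89 and 3.05 in MYC controls (log2 difference 0.64, exact permutation p = 0.4, where 0.1 is the smallest possible). Between 4 and 2 weeks the groups were apart, with a log2 difference of 0.74 that reached the smallest possible exact permutation p of 0.1.

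**Figure D3:**
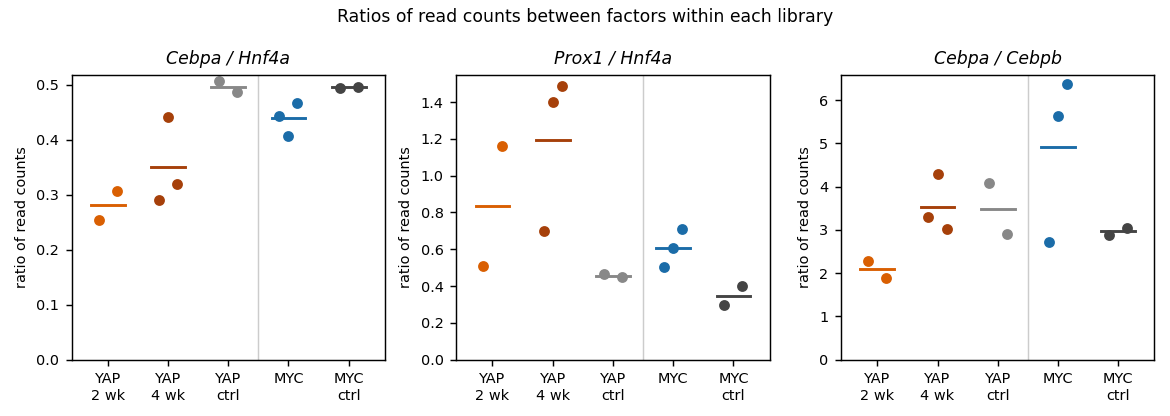
Ratio of the read counts of 2 factors within each library (vertical axis from 0, points, with group means as lines), for 2-week YAP livers, 4-week YAP livers, YAP controls, MYC livers and MYC controls from left to right. The Cebpa to Hnf4a ratio is at most 0.467 in the 8 induced livers and at least 0.487 in the 4 controls, while the Prox1 to Hnf4a ratio is above 1 in 1 2-week and 2 4-week YAP livers.

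Nr1h4 encodes FXR, the bile acid receptor, which restrains bile acid synthesis and promotes export. It lies on the minus strand of chromosome 10 (ENSMUSG00000047638.15, 89454234 to 89533585). Levels were 119.7 and 68.57 CPM in 2-week YAP livers and 73.75, 107.3 and 68.18 CPM in 4-week YAP livers, against 156 and 160.3 CPM in YAP controls. In MYC livers they were 98.86, 61.9 and 64.6 CPM, against 138 and 135.2 CPM in MYC controls. Every induced library was below its controls, while the induced livers of a group spread widely.

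The log2 fold change of Nr1h4 at 2 weeks was -0.75 ± 0.31 and did not pass (adjusted p = 0.0899). It was -0.40 with only the male 2-week library against the male controls. Nr1h4 fell at 4 weeks by 0.93 ± 0.28 (adjusted p = 0.0235) and with MYC by 0.86 ± 0.28 (adjusted p = 0.04998, just under the threshold). Total-count scaling ended both calls, with log2 fold changes of -0.19 (adjusted p = 0.504) and -0.48 (0.153). The 4-week call was also lost without YAP control replicate 1 (0.0924) or 2 (0.104) or 4-week replicate 1 (0.0518) or 3 (0.0793). With MYC it was kept in 5 of the 12 fits that left out a library: it was lost without YAP control replicate 1 (0.0714) or 2 (0.0711), 4-week replicate 3 (0.0561), MYC replicate 2 (0.158) or 3 (0.138), or MYC control replicate 1 (0.206) or 2 (0.175).

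Nr5a2 encodes LRH-1, a receptor that promotes bile acid synthesis and reverse cholesterol transport. The gene lies on chromosome 1 (ENSMUSG00000026398.14, 136842571 to 136960448, minus strand). It had 59.79 and 55.65 CPM in 2-week YAP livers and 50.75, 95.78 and 72.3 CPM in 4-week YAP livers, against 121.3 and 107.1 CPM in YAP controls. In MYC livers it had 85.64, 59.1 and 67.21 CPM, against 87.24 and 91.46 CPM in MYC controls. The 2 libraries at 2 weeks were close to each other and inside the range of the 4-week libraries, and all 5 were below the YAP controls.

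Nr5a2 fell at 2 weeks by 0.98 ± 0.26 on the log2 scale (adjusted p = 0.0175, 49.5% lower). At 4 weeks its log2 fold change of -0.65 ± 0.24 lay just outside the threshold (adjusted p = 0.0532), and with MYC it was -0.34 ± 0.24 (adjusted p = 0.354), values whose sign turned with total-count scaling (0.11 and 0.06). The 2-week call ended with total-count scaling (log2 fold change -0.46, adjusted p = 0.217) and without YAP control replicate 1 (0.0947) or 2 (0.0518) or 2-week replicate 1 (0.0641) or 2 (0.103), of which the last leaves the 1 male library against the male controls. At 4 weeks Nr5a2 passed without 4-week replicate 2 (log2 fold change -0.89, adjusted p = 0.0129) and without MYC replicate 1 (-0.65, 0.041).

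Prox1 had positive fold changes in YAP livers, unlike the factors above. The gene lies on the minus strand of chromosome 1 (ENSMUSG00000010175.13, 190118035 to 190170714). Its levels were 304.6 and 428.5 CPM in 2-week YAP livers and 338, 550.9 and 569.6 CPM in 4-week YAP livers, against 320.8 and 329.9 CPM in YAP controls. MYC livers had 208.7, 191.6 and 260.5 CPM, against 198.5 and 260.5 CPM in MYC controls. All 4-week libraries were above the YAP controls, replicate 1 by little and replicates 2 and 3 by much, while the MYC groups overlapped.

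By TMM scaling the log2 fold change of Prox1 was 0.17 ± 0.29 at 2 weeks (adjusted p = 0.695), 0.58 ± 0.27 at 4 weeks (adjusted p = 0.113) and -0.06 ± 0.26 with MYC (adjusted p = 0.91; 0.36 with total-count scaling), and none passed. With only the male 2-week library against the male controls, the 2-week log2 fold change was -0.09. At 4 weeks Prox1 passed without 4-week replicate 1 (log2 fold change 0.78, adjusted p = 0.021) and with total-count scaling (1.34, 0.00691). Relative to Hnf4a, the Prox1 count was 0.51 and 1.16 in 2-week YAP livers and 0.699, 1.4 and 1.49 in 4-week YAP livers, against 0.468 and 0.447 in YAP controls. In MYC livers this ratio was 0.505, 0.608 and 0.71, against 0.295 and 0.398 in MYC controls. Prox1 was thus higher relative to Hnf4a in each induced group than in its controls, with the groups apart, although Prox1 alone did not pass by TMM scaling. In the YAP model the ratio of 0.51 came from the only induced library with the male pattern of the controls.

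Summed cholangiocyte markers were higher in induced YAP livers than in their controls. They stood at 763 and 1440 CPM in 2-week YAP livers and 628, 3340 and 3480 CPM in 4-week YAP livers, against 211 and 223 CPM in YAP controls. The 3 livers with the most Prox1, 2-week replicate 2 and 4-week replicates 2 and 3, were those with the highest cholangiocyte sums, but 2-week replicate 1 had less Prox1 than both controls and a higher sum. These 3 livers had the female pattern, as did 4-week replicate 1, while 2-week replicate 1 and both controls had the male one. The part of sex in these values was not tested. Spp1 made up most of the mean sum in induced YAP livers, at 731 ± 375 CPM at 2 weeks and 1922 ± 1400 CPM at 4 weeks, against 69.3 ± 6.51 CPM in YAP controls, while Krt19 averaged 5.02 ± 3.3 CPM at 2 weeks and 13.2 ± 8.97 CPM at 4 weeks, against 7.62 ± 2.58 CPM in YAP controls. The part of these cells in the result was not tested. In MYC livers the sum was 98.4 to 108 CPM, against 83.7 and 87.8 CPM in MYC controls. Of the 9 tested cholangiocyte markers 4 rose at 2 weeks, 6 at 4 weeks and 0 with MYC.

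Foxa1 and Foxa2 encode pioneer factors needed for the onset of liver development, and Foxa3 encodes the third member, expressed mainly in the differentiated liver. Foxa1 (ENSMUSG00000035451.7, chromosome 12, 57540628 to 57546916, minus strand) had 52.64 and 67.01 CPM in 2-week YAP livers and 69.49, 46.51 and 59.23 CPM in 4-week YAP livers, against 57.78 and 34.37 CPM in YAP controls. MYC livers had 17.63, 12.9 and 19.5 CPM of Foxa1, against 43.75 and 22.53 CPM in MYC controls. The YAP groups overlapped, and the MYC livers lay below both of their controls, which differed widely between themselves.

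Foxa1 fell in MYC livers by 0.99 ± 0.31 (adjusted p = 0.04998), a call just inside the threshold that was kept in 4 of the 12 fits that left out a library and was lost with total-count scaling (log2 fold change -0.57, adjusted p = 0.214). Without MYC control replicate 1, the higher of the 2 controls, the log2 fold change was -0.43 (adjusted p = 0.509). The call was also lost without 2-week YAP replicate 1 (0.0692) or 2 (0.0629), 4-week YAP replicate 2 (0.05) or 3 (0.0678), or MYC replicate 1 (0.0692), 2 (0.156) or 3 (0.0697). In YAP livers its log2 fold change was 0.38 ± 0.34 at 2 weeks (adjusted p = 0.446) and 0.34 ± 0.32 at 4 weeks (adjusted p = 0.431), while total-count scaling called it higher at 4 weeks (1.07, adjusted p = 0.0187).

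Foxa2 (ENSMUSG00000037025.11, chromosome 2, 148042877 to 148046969, minus strand) was the least abundant of the 9 per kilobase in all 3 groups of the YAP model. It had 15.73 and 19.79 CPM in 2-week YAP livers and 17.02, 31.72 and 32.59 CPM in 4-week YAP livers, against 34.2 and 23.98 CPM in YAP controls, and 25.25, 16.19 and 28.32 CPM in MYC livers, against 45.25 and 21.99 CPM in MYC controls. None of its log2 fold changes passed (-0.71 ± 0.41 at 2 weeks, -0.10 ± 0.37 at 4 weeks and -0.53 ± 0.37 with MYC, adjusted p = 0.219, 0.856 and 0.351), and the sign at 4 weeks turned with total-count scaling (0.66). Foxa3 (ENSMUSG00000040891.6, chromosome 7, 19013284 to 19023538, minus strand) spanned the smallest range of the 9 over the 12 libraries (0.916 log2 units), with 54.13, 56.57 and 68.2 CPM in MYC livers and 67.44 and 68.85 CPM in MYC controls. It had 49.02 and 41.67 CPM in 2-week YAP livers and 38.18, 70.71 and 62.95 CPM in 4-week YAP livers, against 63.57 and 72.14 CPM in YAP controls. Its log2 fold changes were -0.58 ± 0.25 at 2 weeks (adjusted p = 0.106), -0.24 ± 0.23 at 4 weeks (0.433) and -0.19 ± 0.23 with MYC (0.605), with 95% intervals reaching from -1.13 to -0.03, from -0.74 to 0.25 and from -0.69 to 0.30; with total-count scaling the values at 4 weeks and with MYC were 0.52 and 0.23. The Foxa3 to Foxa2 ratio overlapped between groups in every comparison.

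The comparison of 4 with 2 weeks asks whether longer induction changed the factors further. All 4-week livers had a female pattern but only replicate 2 of the 2-week livers did, so time and sex are partly mixed. 0 of the 9 passed with edgeR, with DESeq2 or at an unadjusted p under 0.05, and 0.0612% of all tested genes (11 genes) were called. The largest differences were those of Cebpb (log2 difference -0.61 ± 0.38, adjusted p = 0.788), Foxa2 (0.61 ± 0.38, 0.787) and Prox1 (0.41 ± 0.26, 0.8), and the 95% interval of the Cebpa difference ran from -0.34 to 0.60. Cebpb was lower in all 3 4-week libraries than in both 2-week libraries, the only factor of the 9 whose groups were apart in this comparison, where 20.9% of all tested genes had groups apart.

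Whether MYC and 4 weeks of YAP induction changed the factors differently was tested as an interaction, MYC effect minus YAP effect. The 4-week livers had a female pattern and their controls a male one, while every library of the MYC model had a male one. The models also differ in age and span of induction. In this difference these cannot be told apart from the transgenes. 0 of 9 factors passed with edgeR or DESeq2, where 7.48% of all tested genes were called, 3.15% with a positive and 4.33% with a negative difference, and 1 had an unadjusted p under 0.05. That factor was Foxa1, with log2 fold changes of -0.99 with MYC and 0.34 at 4 weeks of YAP and a difference of -1.33 ± 0.45 (adjusted p = 0.0981, or -1.64 and 0.0453 with total-count scaling). The differences of Hnf4a (-0.10 ± 0.33), Cebpa (0.25 ± 0.30), Cebpb (-0.17 ± 0.54) and Nr1h4 (0.07 ± 0.39) had adjusted p between 0.667 and 0.953. The 95% interval for Cebpa ran from -0.41 to 0.91 and that for Hnf4a from -0.82 to 0.62, so differences of that size are not excluded by these data.

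By the root mean square difference of centred log2 CPM over the 12 libraries, among 8541 candidates with a mean of at least 10 CPM, the genes most like Hnf4a were Abca6 (0.0994), Ei24 (0.112) and Tgfbrap1 (0.116), where Hnf4a itself spanned 1.23 log2 units. Cebpa was followed most closely by Gphn (0.157), Stra6l (0.172) and Dnajc22 (0.174) over a range of 1.66. For Nr1h4 these were D17Wsu92e (0.122), Eif4ebp2 (0.151) and Mia3 (0.173), and for Foxa3 Ctnnb1 (0.121), Stap2 (0.124) and Smarcc2 (0.13). Nr5a2 was closest to Sh3d19 (0.146), Arap1 and Nfu1, and the genes close to Prox1 included AI661453 (0.198) and Arid1b (0.204). The nearest genes to Cebpb (Inhbc, 0.24), Foxa1 (Ggh, 0.265) and Foxa2 (Syne2, 0.245) were farther away.

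Many genes that these factors are known to regulate fell in YAP livers. Counts on all gene lists stand beside the shares of all tested genes called at 2 weeks, at 4 weeks and with MYC. These were 12.7%, 15.7% and 8.56% lower and 15.1%, 18.1% and 9.76% higher. Of 20 HNF4A target genes 12 fell at 2 weeks, 14 at 4 weeks and 3 with MYC, and none rose, with median log2 fold changes of -2.20, -2.15 and -0.90; with total-count scaling 9, 10 and 2 fell and 1 rose at 4 weeks. Ttr, the thyroxine carrier transthyretin, had 821 ± 179 CPM at 2 weeks and 859 ± 225 CPM at 4 weeks, against 4436 ± 136 CPM in YAP controls, log2 fold changes of -2.43 ± 0.34 (adjusted p = 0.000633) and -2.37 ± 0.30 (0.000267). Mttp, which loads lipid onto apolipoprotein B, fell at both times (-2.03 ± 0.20, adjusted p = 0.000124, and -1.92 ± 0.18, 5.88e-05) and with MYC (-0.84 ± 0.18, 0.00924; 0.102 without MYC control replicate 1 and 0.104 with total-count scaling). Otc, an enzyme of the urea cycle, fell at 2 weeks (adjusted p = 0.00222) and, by 2.89 ± 0.44, at 4 weeks (0.000975). These YAP calls held when any 1 library was left out.

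Of 10 C/EBPα target genes 5 fell at 2 weeks, 7 at 4 weeks and 3 with MYC, and none rose, with medians of -1.95, -2.06 and -1.61. Cps1, which starts the urea cycle, had 1708 ± 145 CPM in 4-week YAP livers and 5103 ± 582 CPM in YAP controls (log2 fold change -1.58 ± 0.32, adjusted p = 0.00376, kept without any 1 library). Alb fell with MYC, to 21170 ± 8800 CPM against 66750 ± 1740 CPM in MYC controls (-1.66 ± 0.47, adjusted p = 0.032), a call lost without MYC replicate 2 (0.0927) or 3 (0.0918) or either MYC control (0.136 each). Albumin did not pass in YAP livers, with log2 fold changes of 0.44 ± 0.52 at 2 weeks and -0.49 ± 0.47 at 4 weeks. Ttr and Otc are on both this list and the HNF4A list. Other target lists share genes as well: Alb and Ttr are also FOXA targets, and the genes repressed through SHP are all HNF4A targets. Counts on different lists are therefore not independent.

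Acute phase genes driven by C/EBPβ fell in YAP livers. Of 12 genes 11 fell at 2 weeks and 11 at 4 weeks (medians -2.08 and -2.06), while with MYC 1 fell and 1 rose (median -0.17). For 3 of the 12, Hpx, Saa3 and Lcn2, the effects of MYC and of 4 weeks of YAP differed in the interaction test. Saa1 was at 6.35 ± 8.05 CPM at 2 weeks and 22.5 ± 22.4 CPM at 4 weeks, against 4209 ± 1150 CPM in YAP controls, whereas it was at 4.11 ± 4.36 CPM in MYC livers and 54.9 ± 23.8 CPM in MYC controls. The YAP controls thus carried far more Saa1 than the MYC controls, which differ from them in age and genotype. Crp, for C-reactive protein, fell at both YAP times in every fit that left out a library (-1.65 ± 0.31, adjusted p = 0.00312, and -1.23 ± 0.28, 0.00609), though not at 4 weeks with total-count scaling (0.18). With total-count scaling 7 and 6 of the 12 fell in YAP livers. Lcn2, which neutrophils also carry, rose with MYC to 144 ± 49.5 CPM, against 6.50 ± 1.81 CPM in MYC controls (4.47 ± 0.73, adjusted p = 0.00371; 0.0535 without MYC control replicate 2). In the YAP model Lcn2 was at 200 ± 138 CPM at 2 weeks and 429 ± 162 CPM at 4 weeks, against 840 ± 637 CPM in YAP controls. The libraries of the 4-week and YAP control groups were all above those of the MYC model. The 2-week libraries (102 and 297 CPM) overlapped those of MYC livers (101 to 198 CPM). Summed neutrophil markers were at 797 to 1560 CPM in MYC livers, against 5.57 and 5.61 CPM in MYC controls, and all 10 rose. In YAP livers they were at 23.2 and 218 CPM at 2 weeks and 66.5 to 182 CPM at 4 weeks, against 4.67 and 7.25 CPM in YAP controls, and 5 and 8 of the 10 rose. The part of these cells in the acute phase and Lcn2 results was not tested.

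FXR targets moved both ways. Of 13 tested genes 5 fell and 1 rose at 2 weeks, 5 fell at 4 weeks, and 2 fell and 1 rose with MYC. With total-count scaling 5 fell and 3 rose at 2 weeks, 3 fell and 4 rose at 4 weeks, and 1 fell and 1 rose with MYC, and the medians in YAP livers turned from -0.35 and -0.44 to 0.18 and 0.32. Abcb11, the bile salt export pump, had 70.5 ± 34 CPM at 2 weeks and 110 ± 58.8 CPM at 4 weeks, against 747 ± 14 CPM in YAP controls (-3.40 ± 0.48, adjusted p = 0.000694, and -2.76 ± 0.40, 0.00066), and the calls held without any 1 library. In MYC livers Abcb11 stood at 667 ± 78 CPM, against 531 ± 45.9 CPM in MYC controls, and did not pass (0.33 ± 0.40, adjusted p = 0.618). Nr0b2 (SHP), the corepressor that FXR induces, fell at 2 weeks (-5.53 ± 1.56, adjusted p = 0.028) but not without YAP control replicate 2 (0.118) or 2-week replicate 1 (0.144) or 2 (0.124). With MYC Nr0b2 did not pass (-1.88 ± 1.04, adjusted p = 0.247). Insig2, which holds back cholesterol synthesis, fell with MYC to 34.1 ± 23.1 CPM, against 255 ± 60.7 CPM in MYC controls (-2.90 ± 0.44, adjusted p = 0.00262, kept without any 1 library).

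Cyp7a1, the rate-limiting enzyme of bile acid synthesis and a target that LRH-1 activates and SHP represses, had 30.2 ± 29.9 CPM at 2 weeks and 56.9 ± 63.8 CPM at 4 weeks, against 299 ± 154 CPM in YAP controls. Its libraries scattered widely and it did not pass (adjusted p = 0.159, 0.202 and, with MYC, 0.745). Of 8 LRH-1 targets 2 fell at 2 weeks, 2 at 4 weeks and 1 with MYC. These shares were no larger than those of all tested genes called in either direction (27.8%, 33.8% and 18.3%). With total-count scaling 2 fell and 1 rose at 2 weeks, 1 fell and 2 rose at 4 weeks, and 0 were called with MYC. Abcg8, a subunit of the sterol exporter into bile, fell at 2 weeks (-1.83 ± 0.34, adjusted p = 0.00283, kept without any 1 library). Of 3 genes repressed through SHP, 1 fell at 2 weeks, 2 at 4 weeks and 0 with MYC, Cyp8b1 among them at 4 weeks (-4.78 ± 1.08, adjusted p = 0.00942). Of 9 FOXA targets 2 rose and 2 fell at 2 weeks, 2 rose and 3 fell at 4 weeks, and 1 rose and 2 fell with MYC. Apof fell at both YAP times (-1.73 ± 0.24, adjusted p = 0.00067, and -2.04 ± 0.22, 0.000113). Afp, the fetal α-fetoprotein, rose with MYC to 4369 ± 1890 CPM, against 11.8 ± 0.07 CPM in MYC controls (8.53 ± 1.36, adjusted p = 0.00371), a call lost without MYC control replicate 1 (0.0585) or 2 (0.0552).

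Of 16 other liver-enriched transcription factors 4 fell at 2 weeks, 5 fell and 1 rose at 4 weeks, and 4 fell with MYC. Over all tested genes 27.8%, 33.8% and 18.3% were called in either direction, not far from the shares of this list. With total-count scaling 3 fell and 1 rose at 2 weeks, 2 fell and 3 rose at 4 weeks and 4 fell with MYC, and the median at 4 weeks turned from -0.47 to 0.26. Tbx3, a T-box factor of pericentral hepatocytes, fell in all 3 comparisons with controls, and in every fit of these that left out a library: it had 5.80 ± 0.681 CPM at 2 weeks and 10.5 ± 4 CPM at 4 weeks, against 64.7 ± 3.09 CPM in YAP controls, and 4.94 ± 3.69 CPM in MYC livers, against 40.4 ± 9.14 CPM in MYC controls. The log2 fold changes were -3.48 ± 0.57 (adjusted p = 0.00194), -2.62 ± 0.47 (0.00258) and -3.02 ± 0.49 (0.0032). Zbtb20, a repressor of Afp in adult liver, fell with MYC, to 281 ± 59.7 CPM against 896 ± 110 CPM in MYC controls (-1.67 ± 0.23, adjusted p = 0.00126). It did not pass in YAP livers (-0.46 ± 0.26, adjusted p = 0.201, and -0.26 ± 0.23, 0.414). Ppara, the fatty acid receptor, fell at 4 weeks (-1.35 ± 0.24, adjusted p = 0.00162) and with MYC (-1.34 ± 0.24, 0.00379) in every such fit.

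Of 13 nuclear receptor partners and corepressors 4 fell and 1 rose at each YAP time, and 5 fell with MYC. Rxra, the partner with which FXR binds DNA, had 340 ± 102 CPM at 2 weeks and 275 ± 22.8 CPM at 4 weeks, against 479 ± 14 CPM in YAP controls, and 220 ± 87 CPM in MYC livers, against 452 ± 6.29 CPM in MYC controls. It fell at 4 weeks (-0.80 ± 0.28, adjusted p = 0.0475) and with MYC (-1.04 ± 0.28, 0.0267), and 8 of 12 and 4 of 12 fits that left out a library ended these calls, with adjusted p up to 0.169 (without YAP control replicate 2) and 0.131 (without MYC control replicate 1). Nr1h3 (LXRα), the oxysterol receptor, fell at both YAP times in all such fits (-1.12 ± 0.20, adjusted p = 0.00229, and -1.28 ± 0.18, 0.000467). With total-count scaling 2, 1 and 3 of these 13 genes fell and 4, 5 and 1 rose, and Rxra did not pass at 4 weeks (log2 fold change -0.07, adjusted p = 0.799).

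Among 9 other C/EBP family and PAR bZIP factors 2 rose at 2 weeks, 3 rose and 1 fell at 4 weeks, and 1 rose with MYC. Over all tested genes 27.8%, 33.8% and 18.3% were called in either direction, more than on this list at 2 weeks and with MYC. With total-count scaling 4, 5 and 2 rose and 0 fell, and the medians in YAP livers turned from -0.08 and -0.13 to 0.45 and 0.60. Cebpd, a relative of Cebpb induced by inflammatory signals, had 19.2 ± 2.05 CPM at 2 weeks and 15.3 ± 4.05 CPM at 4 weeks, against 6.96 ± 1.1 CPM in YAP controls (1.47 ± 0.39, adjusted p = 0.0163, and 1.14 ± 0.36, 0.0311). Cebpd thus moved opposite to Cebpa at both times, while with MYC it did not pass (0.21 ± 0.35, adjusted p = 0.729). The 2-week call of Cebpd was lost without either YAP control (0.107 and 0.0591) or 2-week replicate 2 (0.0813), and the 4-week call without either YAP control (0.173 and 0.0915) or 4-week replicate 1 (0.0511) or 3 (0.0898). Cebpe, a factor of granulocyte maturation, had 3.12 ± 1.54 CPM in MYC livers and no counts in MYC controls, beside the neutrophil marker sums given above; their part in this was not tested.

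Biliary transcription factors rose in YAP livers: of 10 genes 6 rose at 2 weeks and 7 at 4 weeks, with medians of 1.76 and 2.33, while with MYC 2 rose and 1 fell (median -0.12). Sox4 had 59.7 ± 48.6 CPM at 2 weeks and 108 ± 62 CPM at 4 weeks, against 1.71 ± 0.173 CPM in YAP controls (5.11 ± 0.84, adjusted p = 0.00242, and 5.97 ± 0.85, 0.000931). Sox9, a factor of bile ducts and of hepatocytes that take on biliary traits, had 196 ± 103 CPM at 4 weeks, against 30.3 ± 0.359 CPM in YAP controls (2.70 ± 0.52, adjusted p = 0.00384). Hes1, a Notch target, rose at both YAP times (2.16 ± 0.24, adjusted p = 0.000187, and 2.07 ± 0.23, 0.000132) and fell with MYC (-0.89 ± 0.20, 0.0127), the fall being lost without MYC control replicate 1 (0.0585) or 2 (0.115) and with total-count scaling (0.131). Tead1 is counted on this list but encodes a TEAD protein, a DNA-binding partner of YAP, and is not among the cholangiocyte markers. It rose in YAP livers, at 4 weeks to 239 ± 89.4 CPM, against 27.9 ± 3.49 CPM in YAP controls. Its log2 fold changes at 2 and 4 weeks had the same direction (3.17 ± 0.33, adjusted p = 0.000137, and 3.10 ± 0.32, 8.7e-05). The YAP calls of Sox4, Hes1 and Tead1 and the 4-week call of Sox9 held without any 1 library. Sox9 is also on the list of cholangiocyte markers, whose sums are given above beside Prox1, and the part of such cells in these rises was not tested.

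**Figure D4:**
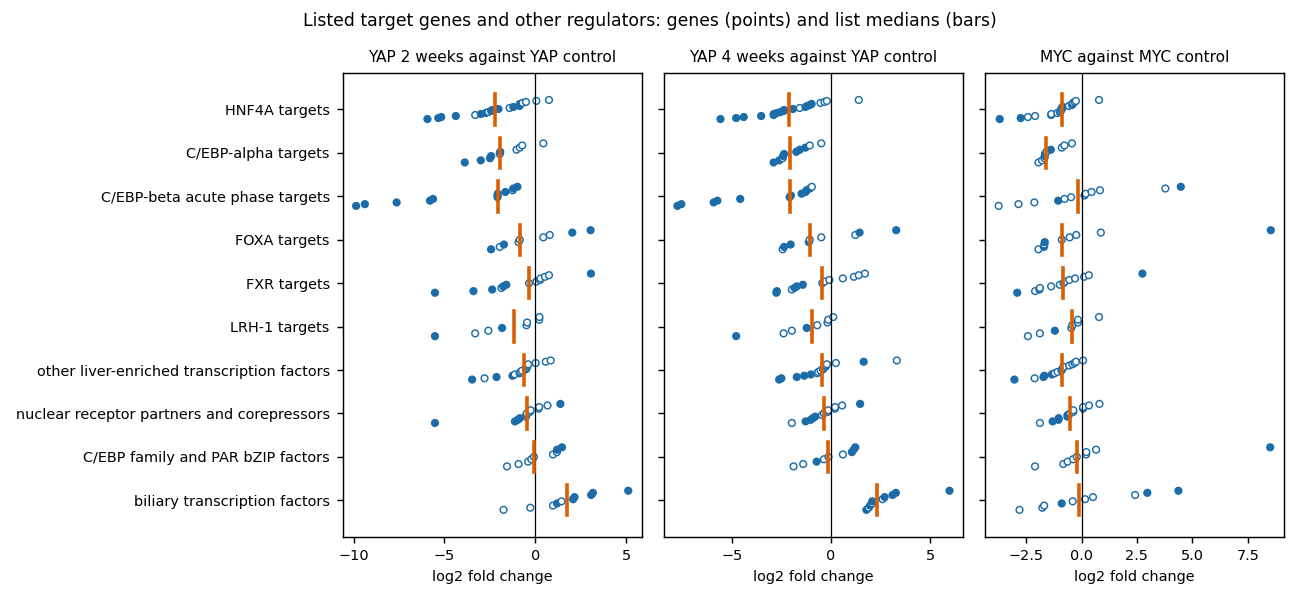
Log2 fold changes (horizontal axis, a range of its own in each panel) of listed target genes and other regulators in 3 comparisons with controls; points are genes, filled where the adjusted p was under 0.05, and bars are list medians. HNF4A, C/EBPα and C/EBPβ target lists have medians near -2 in both YAP panels, whereas the biliary factors have medians of 1.76 and 2.33 there.

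Hepatocyte markers themselves were lower in part: of 9 tested 3 fell at 2 weeks, 5 at 4 weeks and 4 with MYC, with medians of -0.85, -1.20 and -1.07. With total-count scaling 1 fell and 1 rose at 2 weeks, 2 fell at 4 weeks and 2 with MYC, with medians of -0.33, -0.50 and -0.65. Their summed level was 78600 and 97900 CPM in 2-week YAP livers and 44000 to 78900 CPM in 4-week YAP livers, against 95700 and 111000 CPM in YAP controls, and 36900 to 68700 CPM in MYC livers, against 131000 and 136000 CPM in MYC controls. Summed Kupffer cell and macrophage markers were higher in induced livers, at 1650 and 1840 CPM at 2 weeks and 557 to 1150 CPM at 4 weeks, against 314 and 318 CPM in YAP controls, and at 721 to 848 CPM with MYC, against 301 and 314 CPM in MYC controls. The groups were apart for this sum in each of the 3 comparisons. Of the 12 markers 10 rose at 2 weeks and 7 at 4 weeks, while with MYC 5 rose, 1 fell (Cx3cr1, log2 fold change -2.38) and 6 did not pass. Clec4f, a marker of resident Kupffer cells, averaged 163 ± 2.99 CPM at 2 weeks and 52.0 ± 42.3 CPM at 4 weeks, against 51.3 ± 3.96 CPM in YAP controls. It was at 71.8 ± 21.5 CPM in MYC livers, against 83.4 ± 2.75 CPM in MYC controls. Cd5l, on the same list, averaged 319 ± 45.8 CPM at 2 weeks and 76.5 ± 53.7 CPM at 4 weeks, against 79.2 ± 10 CPM in YAP controls. Unlike Clec4f it was higher with MYC, at 265 ± 25.3 CPM against 62.0 ± 4 CPM in MYC controls. The part of these shifts in the falls of the hepatocyte factors was not tested.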

How the data were processed

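Gene-level read counts of 12 mouse liver RNA-seq libraries were used as the authors deposited them. Per the labels' protocols, total liver RNA was made into libraries with a Nugen Ovation kit. The submitters' processing notes list featureCounts 1.6.3 and HISAT2 2.1.0, besides Trim Galore 0.4.1 and DESeq2 1.20.0, with GRCm38/mm10 as the build; strand setting and annotation are not given in the sources used here. Gene positions, exon lengths and overlaps were taken from GENCODE (GRCm38) and promoter sequences from RefSeq (GRCm38.p6).

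Counts were tested with edgeR 4.0.16 (R 4.3.3): TMM scaling, its default filter on low counts, 1 mean per group over all 12 libraries (7 residual degrees of freedom), the robust quasi-likelihood test and Benjamini-Hochberg adjustment over 17964 genes, with a threshold of 0.05. The 5 comparisons were 2-week YAP, 4-week YAP and MYC livers against their controls, 4 against 2 weeks, and the MYC effect minus the 4-week YAP effect. Intervals are at 95%. Exact permutation tests were used for 2 planned ratios, with a pseudocount of 0.5 counts. Standard errors of fold changes come from the fit, and SD is over libraries.

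Totals of 12511170 to 17690798 counts set the precision of low genes, and replicates of a group differed beyond counting noise (chi-square per degree of freedom 12.3 to 121). The labels do not say that replicates were separate animals, so p-values measure the spread between these samples, which may be technical except in the 2-week group, whose 2 libraries differ in sex. Alternatives were total-count and median-of-ratios scaling, DESeq2 1.42.0, no filter, only the groups compared, a replicate block and leaving out each library.

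The 9 factors and all 19 gene lists were chosen with earlier results of these data known. Beside the factors, the text names from each list up to 4 tested genes with the smallest p in the comparison described. It also names Nr0b2, Cyp7a1, Abcb11, Rxra and Cebpd, though not each of them in every comparison. Other genes named were chosen after their values were seen. Results on some genes of these lists are not reported here.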

Additional observations from a re-analysis of the deposited data

Results flagged for a closer look

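For 17 reported genes of the target and regulator lists the MYC effect differed from the 4-week YAP effect in edgeR's test of the difference (MYC log2 fold change minus YAP log2 fold change, Benjamini-Hochberg adjusted p). None of the 9 hepatocyte factors was among them. Sex, age and span of induction also differ in this comparison, as given above, and cannot be told apart from the transgenes. Groups of 2 or 3 libraries were too small for a check of single outlying samples.

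Among targets of HNF4A the difference was 1.08 for Mttp (adjusted p = 0.0285) and 2.46 for Otc (0.0408), both of which fell in YAP livers. Abcb11, the bile salt pump, differed by 3.09 (0.0114), with log2 fold changes of 0.33 with MYC and -2.76 with YAP. Apof differed by 1.5 (0.0162). Afp differed by 7.31 (0.0198), with 8.53 in MYC livers and 1.22 in 4-week YAP livers, and Igfbp1 by -3.52 (0.0471). The acute phase genes Hpx, Saa3 and Lcn2 differed by 2.21 (0.0422), 9.51 (0.0187) and 5.44 (0.00809). The controls of the models differed widely for 2 of these genes: Saa3 averaged 133 CPM in YAP controls and 1.98 CPM in MYC controls, and Lcn2 840 and 6.50 CPM. Lcn2 was lower in MYC livers (144 CPM) than in 4-week YAP livers (429 CPM).

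Among regulators, Sox4, Sox9 and Hes1 of the biliary list differed by -5.81 (adjusted p = 0.0123), -4.46 (0.0097) and -2.96 (0.000552). The controls differed for Sox9 too, at 30.3 CPM in YAP controls and 3.76 CPM in MYC controls, and MYC livers averaged 1.09 CPM. Tead1, on that list but encoding a TEAD protein that partners YAP, differed by -3.49 (0.00118). Zhx2 and Zbtb20, repressors of fetal liver genes, differed by -1.96 (0.0344) and -1.41 (0.0271), and Nfil3, of the circadian system, by -1.68 (0.041). Cebpe differed by 10.4 (0.00568), a fitted value against controls with no counts that is not a bound. Hes1, Tead1 and Cebpe passed in all 12 fits that left out a library. Lcn2 passed in 11, Abcb11 in 10, Saa3, Apof, Sox4 and Sox9 in 9, Afp in 8, Mttp in 6, Otc, Zbtb20 and Nfil3 in 5, Zhx2 in 4, Hpx in 3 and Igfbp1 in 1.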

How the results depend on the processing

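Of 45 results on the 9 factors (9 in each of 5 comparisons), 45 kept direction and side of the threshold with DESeq2, 44 with median-of-ratios scaling, 41 without the filter, 41 with only the groups compared and 22 with total-count scaling. Of 540 such results with a library left out, 470 did; a lone sample in a group is then assumed to vary like the other groups. The cause was not tested for any change. With total-count scaling the 4 lower calls at 4 weeks became 1 lower and 2 higher. The number of factors called (2, 4, 5, 0 and 0) was 1, 2 and 1 with total-count scaling at 2 weeks, with MYC and for the MYC minus YAP difference, 4 and 3 with only the groups compared at 2 weeks and with MYC, and 3 without the filter with MYC. Over fits with a library left out it was 1 to 3 at 2 weeks, 1 to 5 at 4 weeks, 0 to 5 with MYC and 0 to 0 in the other comparisons. Over all genes these fits called 2445 to 5738 at 2 weeks, 3324 to 6348 at 4 weeks, 792 to 4192 with MYC, 1 to 501 between 4 and 2 weeks and 338 to 1868 for the difference. Between 4 and 2 weeks 11 genes were called, but 3 with total-count scaling, 77 with DESeq2, 42 without the filter and 0 with only the groups compared; DESeq2 called 2350 for the difference (main 1344). Genes higher and lower were 2716 and 2277 at 2 weeks, 3253 and 2820 at 4 weeks, 1754 and 1537 with MYC and 566 and 778 for the difference; total-count scaling gave 5228 and 979, 7863 and 897, 3277 and 743, and 270 and 1260.

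Signs turned with total-count scaling at 4 weeks for Foxa2 (0.663), Foxa3 (0.516) and Nr5a2 (0.107), with MYC for Foxa3 (0.23), Nr5a2 (0.056) and Prox1 (0.356), between 4 and 2 weeks for Hnf4a (0.0219), Foxa1 (0.144) and Nr1h4 (0.0599), and for the difference in Cebpa (-0.0832), Foxa3 (-0.285), Nr1h4 (-0.286) and Nr5a2 (-0.0511). With a library left out, values that turned ranged from -0.0912 to 0.413 for Prox1 at 2 weeks, -0.334 to 0.186 for Foxa2 at 4 weeks, -0.96 to 0.0805 for Foxa2 and -0.243 to 0.149 for Prox1 with MYC. Between 4 and 2 weeks they ranged from -0.507 to 0.199 for Hnf4a, -0.0603 to 0.37 for Cebpa, -0.183 to 0.15 for Foxa1 and -0.527 to 0.291 for Nr1h4. For the difference they ranged from -0.198 to 0.0138 for Hnf4a, -0.815 to 0.11 for Cebpb, -0.862 to 0.178 for Foxa2, -0.169 to 0.229 for Foxa3 and -0.18 to 0.292 for Nr1h4. Log2 ratios ranged from -0.224 to 0.272 for Cebpa to Cebpb at 4 weeks, and for Foxa3 to Foxa2 from -0.231 to 0.462 at 2 weeks, -0.497 to 0.196 at 4 weeks, -0.255 to 0.814 with MYC and -0.548 to 0.0165 between 4 and 2 weeks.

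Replicate numbers did not pair the libraries: deviations of same-numbered libraries correlated between -0.0316 and 0.0816. With the replicate block 2 factors were called at 4 weeks, where Cebpb (adjusted p = 0.0539) and Nr1h4 (0.0534) did not pass, and Nr1h4 did not pass with MYC (0.0958); the block called 4894, 5058, 2636, 13 and 1329 genes in the 5 comparisons.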
